A study of Mus musculus with 10 samples.

Results

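The integrated stress response was examined through 10 genes in macrophages sorted from mouse mammary tumours. The genes were Atf4, Atf5, Ddit3, Ddit4, Trib3, Chac1, Sesn2, Eif4ebp1, Cebpg and Ppp1r15a. They were chosen by name, as the transcription factor ATF4 with its partners and known targets, and taken from tables of 46956 named loci. All 10 had a row in every table, and all 10 passed the filter on low counts. The comparison asks whether these genes move together when the tumour-bearing mouse is given a glutamine antagonist, and which of them do not follow the others.

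The cells came from BALB/cJ mice bearing 4T1 tumours, a transplantable mouse mammary carcinoma, placed in the mammary fat pad. The 5 vehicle samples came from mice given PBS. The 5 JHU083 samples came from mice given JHU083, a prodrug of the glutamine analogue 6-diazo-5-oxo-L-norleucine, at 1 mg/kg from day 7 to day 13. Tumours of both groups were taken on day 14, and neither group carried a transgene or deletion according to the labels. Sorted cells were live, carried CD45, CD11b and F4/80, and lacked CD8, Ly6C and Ly6G. The labels do not say that each sample came from its own mouse, so the p-values measure the spread between these samples.

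Cells that lack an amino acid, carry misfolded protein in the endoplasmic reticulum, sense double-stranded RNA or lack heme phosphorylate the initiation factor eIF2alpha through kinases specific to each stress. General translation then falls while translation of the Atf4 mRNA rises, because short upstream reading frames hold the ribosome back from ATF4 under resting conditions. ATF4 pairs with C/EBP proteins and switches on genes for amino acid import and synthesis, for brakes on the growth kinase mTORC1 and for the phosphatase subunit that ends the response. RNA levels therefore report on the targets and on the amount of Atf4 template, and not on how much ATF4 protein was made.

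Promoter letters of the 10 genes were read from RefSeq (GRCm38.p6) in windows of 300 bases, 250 before the gene start and 50 from it on. Windows were held for 9 of the 10 genes, with a pair for Atf5. Both strands were searched for 3 motifs, of which none contains another. The C/EBP-ATF response element bound by ATF4 pairs was searched as TGATGNAA, which 3.97% of 32851 promoter windows hold. The cAMP response element was searched as TGACGTCA (1.79% of windows) and the hypoxia response element core as ACGTG (19.6%). The 4 stretches below are shown because they hold every match to the first 2 motifs among these genes, and the hypoxia core of the gene that fell most. They cover the response element of Chac1 (chr2:119351023-119351082, plus strand) and of Trib3 (chr2:152344028-152344057, minus strand). The others are the cAMP response element of Ppp1r15a (chr7:45526269-45526328, minus strand) and the hypoxia core of Ddit4 (chr10:59951925-59951984, minus strand). Letters run 5′ to 3′ on the gene's strand, and capitals mark the match.
Chac1: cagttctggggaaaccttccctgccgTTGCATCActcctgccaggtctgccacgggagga
Trib3: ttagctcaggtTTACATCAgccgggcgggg
Ppp1r15a: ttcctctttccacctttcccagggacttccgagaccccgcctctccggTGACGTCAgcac
Ddit4: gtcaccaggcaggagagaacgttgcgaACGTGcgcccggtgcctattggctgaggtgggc

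The Chac1 and Trib3 matches read TGATGNAA on the opposite strand. They begin 193 bases before the Chac1 start and 14 bases after the Trib3 start, counted from the RefSeq starts. The Ppp1r15a match begins 12 bases before its RefSeq start, and the Ddit4 match 187 bases before. For Chac1, Trib3 and Ddit4 the RefSeq start differs from that in the GENCODE positions given below. Counted from the GENCODE start, the Trib3 match lies before the gene. The hypoxia core also occurred in the Ddit3 window and at 2 places in the Ppp1r15a window. A match is a description of letters, and no match in a window of this length says nothing of ATF4 binding elsewhere.

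Libraries held 11147723 to 14575720 fragments in vehicle and 13638169 to 15740487 in JHU083. JHU083 was compared with vehicle over 12500 loci by the edgeR quasi-likelihood test with Benjamini-Hochberg adjustment over all of them, and a locus was called at an adjusted p under 0.05. Of these loci 36.7% were called, 18.4% higher and 18.3% lower in JHU083, so a call is common in this comparison. Scaling to library size alone moved the split to 1564 higher and 3141 lower, from 2296 and 2293. In 3 vehicle and 2 JHU083 libraries the loci Gm42418 and Rn18s-rs5 have the value 0, and in the other 5 libraries they have fragments; the labels name no batch that matches this. Levels are given in CPM, a gene's fragments scaled to a library of fixed size with TMM factors. Macrophage markers were high in both groups: 10 of 10 were tested, and their summed level ran from 17103 to 21051 CPM in vehicle and from 22091 to 28832 CPM in JHU083.

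Of the 10 genes, 5 were higher in JHU083 (Atf4, Atf5, Cebpg, Ddit3 and Ppp1r15a), 2 were lower (Ddit4 and Eif4ebp1) and 3 were not called (Trib3, Sesn2 and Chac1). The called share, 7 of 10, stands beside the 36.7% called among all loci, and the 5 higher beside 18.4%. The median log2 fold change of the 10 was 0.32, with 0.01 over all loci tested. The groups of samples did not overlap for 3 of the 10 (Atf5, Cebpg and Ddit4). That was so for 22.3% of all loci, 11.2% with JHU083 above and 11.1% with JHU083 below. In bulk RNA, fewer cells of a type and less RNA per cell cannot be told apart.

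Atf4 (ENSMUSG00000042406.8, protein coding, GRCm38 chromosome 15, 80255184 to 80257541) encodes the activator at the centre of the response. In vehicle replicates 1 to 5 it stood at 259.8, 247, 226, 266 and 263 CPM. In JHU083 replicates 1 to 5 it stood at 308, 259, 335, 333 and 311 CPM. In JHU083, 4 of 5 samples lay above every vehicle sample, and replicate 2 lay inside the vehicle range. Atf4 rose to a mean of 309 ± 30.7 CPM in JHU083 from 252 ± 16.2 CPM in vehicle (SD, n = 5). The log2 fold change was 0.29 ± 0.08 (SE, edgeR adjusted p = 0.0109), or 1.23-fold.

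Cebpg (ENSMUSG00000056216.9, chromosome 7, 35046422 to 35056573) encodes C/EBPgamma, a dimer partner of ATF4 that is itself an ATF4 target. Its level was 72.9, 79.4, 90.4, 86.7 and 75.3 CPM in vehicle replicates 1 to 5, and 147, 150.2, 122, 144 and 171 CPM in JHU083. Every JHU083 sample lay well above every vehicle sample. Cebpg rose to a mean of 147 ± 17.3 CPM in JHU083 from 80.9 ± 7.47 CPM in vehicle (SD, n = 5). The log2 fold change was 0.86 ± 0.09 (SE, edgeR adjusted p = 1.60e-05), or 1.81-fold. This was the largest rise of the 10, and 3.22% of all loci rose by as much or more. The row also lists Gm44836, a sense intronic transcript inside Cebpg, so the value covers both.

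Atf5 (ENSMUSG00000038539.15, chromosome 7, 44812256 to 44816658) encodes a factor related to ATF4, under the same kind of translational control and linked to stress in mitochondria. Vehicle replicates 1 to 5 had 20.6, 19.0, 21.6, 24.7 and 23.3 CPM, and JHU083 replicates 1 to 5 had 25.8, 28.7, 31.9, 33.0 and 30.3 CPM. The groups did not overlap, with JHU083 replicate 1 nearest to vehicle. Atf5 rose by 0.46 ± 0.10 on the log2 scale (SE, edgeR adjusted p = 0.00238), or 1.37-fold. Its exons overlap those of Nup62 and Il4i1 on the opposite strand, and the labels' protocols record no step that keeps the strand. The row shared by Nup62 and Il4i1 fell by 0.22 (adjusted p = 0.0465), opposite to Atf5.

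Ddit3 (ENSMUSG00000025408.15, chromosome 10, 127290774 to 127296288) encodes CHOP, the factor through which a lasting response can turn toward cell death. Vehicle replicates 1 to 5 had 22.2, 23.8, 25.9, 24.5 and 24.2 CPM, a tight range. JHU083 replicates 1 to 5 had 30.6, 23.4, 35.5, 29.6 and 33.2 CPM, so replicate 2 again lay inside the vehicle range while the other 4 lay above it. Ddit3 rose by 0.34 ± 0.11 on the log2 scale (SE, edgeR adjusted p = 0.0224). The call was lost without vehicle replicate 1 (0.31, adjusted p = 0.059), without JHU083 replicate 5 (0.31, adjusted p = 0.0566), with library-size scaling (0.25, adjusted p = 0.0613) and on log2(FPKM + 0.1) (0.34, limma adjusted p = 0.0555). Its exons overlap those of Mars on the opposite strand, and Mars fell by 0.31 (adjusted p = 0.0124).

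Ppp1r15a (ENSMUSG00000040435.12, chromosome 7, 45522916 to 45526268) encodes GADD34, which brings protein phosphatase to eIF2alpha and closes the loop. It is the gene whose cAMP response element is printed above. Vehicle replicates 1 to 5 had 114, 119, 120.2, 138 and 126 CPM. JHU083 replicates 1 to 5 had 152, 129.9, 159, 179 and 165 CPM, and replicate 2 alone lay inside the vehicle range. Ppp1r15a rose by 0.35 ± 0.09 on the log2 scale (SE, edgeR adjusted p = 0.00669), or 1.27-fold. On the authors' deposited normalized values, taken as FPKM, it was 0.22 higher with a pseudocount of 0.1, and not called (limma adjusted p = 0.369). Tulp2, which overlaps it, had at most 7 fragments in any library.

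Trib3 (ENSMUSG00000032715.9, chromosome 2, 152337422 to 152344032) encodes a pseudokinase that binds ATF4 and restrains it. Vehicle replicates 1 to 5 had 3.60, 3.28, 4.38, 4.69 and 4.62 CPM, and JHU083 replicates 1 to 5 had 3.95, 4.94, 5.89, 5.73 and 5.50 CPM. The groups overlapped through JHU083 replicate 1. The difference was 0.34 ± 0.17 on the log2 scale (SE, 95% interval -0.02 to 0.70, edgeR adjusted p = 0.123). Its estimate was the same as that of Ddit3, on 43 to 84 fragments per library against 282 to 507.

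Chac1 (ENSMUSG00000027313.3, chromosome 2, 119351229 to 119354381) encodes an enzyme that degrades glutathione and is among the most inducible ATF4 and CHOP targets. Its vehicle levels were 1.43, 4.19, 2.79, 1.82 and 1.57 CPM, and its JHU083 levels 2.32, 0.685, 1.34, 1.68 and 3.86 CPM. The highest sample of all was a vehicle sample and the lowest a JHU083 sample. Libraries held only 10 to 59 Chac1 fragments, and the difference was -0.24 ± 0.41 (SE, 95% interval -1.12 to 0.63, edgeR adjusted p = 0.668). The fragments varied widely between samples of a group (30.8 ± 15.3 in vehicle and 28.6 ± 19.1 in JHU083, SD, n = 5), and an increase as large as that of Atf4 lies inside the interval.

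Sesn2, Ddit4 and Eif4ebp1 are the ATF4 targets that act on mTORC1 and translation. Sesn2 (ENSMUSG00000028893.8, chromosome 4, 132492032 to 132510501) encodes a leucine sensor that holds mTORC1 back. It had 23.4, 21.9, 24.9, 25.6 and 27.2 CPM in vehicle replicates 1 to 5, and 26.8, 29.1, 26.4, 25.2 and 29.1 CPM in JHU083. The groups overlapped, and the difference was 0.15 ± 0.08 (SE, 95% interval -0.03 to 0.33, edgeR adjusted p = 0.174).

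Ddit4 (ENSMUSG00000020108.4, chromosome 10, 59949669 to 59951834) encodes REDD1, an inhibitor of mTORC1 that also answers to hypoxia and to glucocorticoids. Vehicle replicates 1 to 5 had 52.9, 76.8, 75.5, 68.0 and 64.0 CPM. JHU083 replicates 1 to 5 had 35.3, 39.3, 31.1, 44.4 and 46.4 CPM, all below the lowest vehicle sample. Ddit4 fell to a mean of 39.3 ± 6.32 CPM in JHU083 from 67.4 ± 9.69 CPM in vehicle (SD, n = 5). The log2 fold change was -0.78 ± 0.12 (SE, edgeR adjusted p = 0.000314), or 0.583 of the vehicle level. Among all loci, 7.50% fell by as much or more.

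Eif4ebp1 (ENSMUSG00000031490.6, chromosome 8, 27260329 to 27276674) encodes 4E-BP1, which binds the cap-binding factor eIF4E and blocks initiation until mTORC1 phosphorylates it. Vehicle replicates 1 to 5 had 139, 115, 118, 136 and 147 CPM. JHU083 replicates 1 to 5 had 83.9, 89.9, 123, 93.7 and 101 CPM. In JHU083, 4 of 5 samples lay below every vehicle sample, and replicate 3 lay inside the vehicle range. Eif4ebp1 fell to a mean of 98.3 ± 15.2 CPM in JHU083 from 131 ± 13.9 CPM in vehicle (SD, n = 5). The log2 fold change was -0.41 ± 0.11 (SE, edgeR adjusted p = 0.00736).

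**Figure D1:**
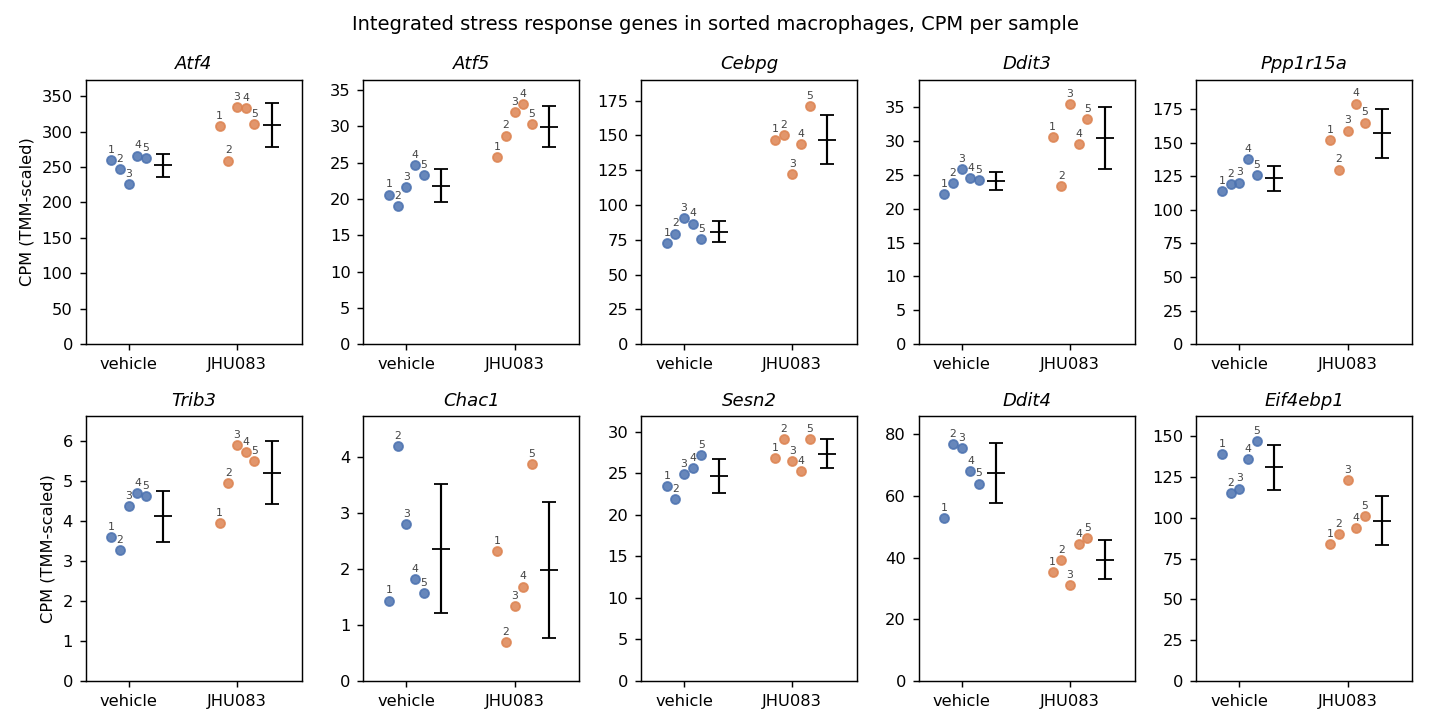
CPM of each of the 10 genes (vertical axes from 0, TMM-scaled) in every vehicle and JHU083 sample, with replicate numbers beside the points and the mean ± SD (n = 5) as a black bar. JHU083 samples of Cebpg sit at 122 to 171 CPM above vehicle samples at 72.9 to 90.4, and JHU083 samples of Ddit4 sit at 31.1 to 46.4 below vehicle samples at 52.9 to 76.8.

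**Figure D2:**
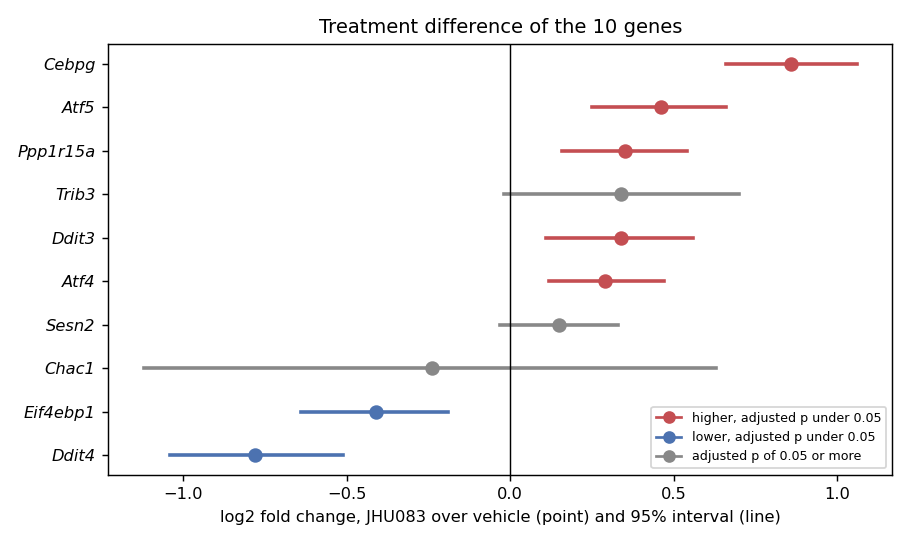
Log2 fold change of JHU083 over vehicle for the 10 genes (horizontal axis), with points for the edgeR estimate and lines for its 95% interval, coloured by call. Cebpg lies farthest right at 0.86 and Ddit4 farthest left at -0.78, and the intervals of Trib3, Sesn2 and Chac1 cross 0.

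The ratio of each gene to Atf4 within the same library does not depend on how libraries are scaled. It is a ratio of fragments with no correction for length, so it is read between groups and not as the level of one gene against another. Ppp1r15a kept nearly the same ratio, with a mean log2 ratio of -1.03 ± 0.11 in vehicle and -0.98 ± 0.07 in JHU083 (SD, n = 5). Ddit3 stood at -3.39 ± 0.16 and -3.35 ± 0.12, and Trib3 at -5.95 ± 0.24 and -5.90 ± 0.22. The ratios of these 3 genes shifted by 0.03 to 0.05, less than the spread within each group. Atf5 stood at -3.53 ± 0.14 and -3.37 ± 0.15, a shift of 0.16 with 3 JHU083 samples outside the vehicle range. Sesn2 stood at -3.36 ± 0.13 and -3.50 ± 0.23, a shift of -0.14 with 4 JHU083 samples outside the vehicle range, not all on the same side. Both of these genes overlapped between the groups, as did Chac1, at -6.86 ± 0.71 and -7.51 ± 0.85.

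The ratio of Cebpg to Atf4 was higher in JHU083, with log2 ratios of -1.83, -1.64, -1.32, -1.62 and -1.80 in vehicle replicates 1 to 5 and -1.07, -0.79, -1.46, -1.20 and -0.87 in JHU083. JHU083 replicate 3 lay inside the vehicle range, and the other 4 lay above it. For Ddit4 the log2 ratio was -2.30 to -1.58 in vehicle and -3.43 to -2.72 in JHU083, and for Eif4ebp1 it was -1.10 to -0.84 and -1.88 to -1.45. Both left the vehicle range in 5 of 5 JHU083 samples. Atf4 itself was higher in JHU083, which by itself lowers these ratios, and the CPM of Eif4ebp1 overlapped between the groups. The share of all loci whose ratio to Atf4 separates the groups was not computed. Cebpg fragments numbered 1.03 to 1.38 for each Ddit4 fragment in vehicle and 3.25 to 4.16 in JHU083, a pair set side by side after the values were seen.

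**Figure D3:**
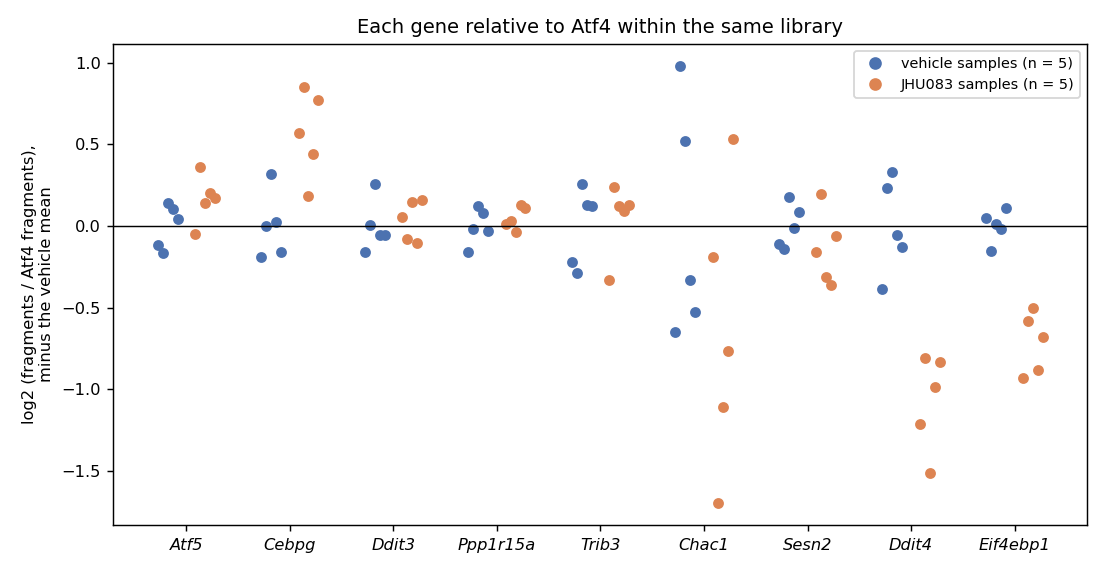
Log2 of fragments over Atf4 fragments in the same library, minus the vehicle mean (vertical axis), for the other 9 genes, with 1 point per sample. Ddit4 and Eif4ebp1 lie below 0 in all 5 JHU083 samples with no overlap, Ppp1r15a, Ddit3 and Trib3 stay around 0, and Chac1 scatters widely in both groups.

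Levels of different genes were compared in the deposited normalized values, here taken as FPKM, which is per length. That reading rests on the values alone, and so does the order below. For Ppp1r15a they did not follow CPM: vehicle replicates 2 and 4 had 119 and 138 CPM but 61.5 and 113 FPKM. In vehicle the order of mean FPKM was Atf4 (153 ± 9.30), Eif4ebp1 (93.2 ± 13.0), Ppp1r15a (79.3 ± 20.5), Ddit4 (42.1 ± 6.22), Ddit3 (35.0 ± 2.58), Cebpg (22.6 ± 2.49), Atf5 (14.8 ± 0.343), Sesn2 (6.92 ± 0.562), Trib3 (2.19 ± 0.438) and Chac1 (1.53 ± 0.753; SD, n = 5 throughout). Samples overlapped between the neighbours Eif4ebp1 and Ppp1r15a, Ddit4 and Ddit3, and Trib3 and Chac1, and not between the others. In JHU083, Cebpg stood in position 4 at 45.2 ± 7.00 FPKM (position 6 in vehicle), and Ddit4 in position 6 at 24.6 ± 3.99 FPKM (position 4 in vehicle). In JHU083, samples of Cebpg overlapped those of Ddit3 and samples of Ddit4 those of Atf5, so neither position is separate from its neighbour, and the same held for Ppp1r15a and Eif4ebp1 and for Trib3 and Chac1. The Cebpg row covers 2 transcripts, so its FPKM is that of the locus.

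Upstream of ATF4, 11 genes of the eIF2alpha kinases, their regulators and the phosphatase were tested, of which 3 were higher and 2 lower, a called share close to the 36.7% among all loci. Eif2ak3, which encodes the endoplasmic reticulum kinase PERK, rose by 0.43 ± 0.09 on the log2 scale (SE, edgeR adjusted p = 0.00259). Eif2ak4, which encodes the amino acid sensor GCN2, fell by 0.55 (adjusted p = 0.00194), with vehicle at 23.5 ± 0.771 CPM and JHU083 at 16.0 ± 2.67 CPM (SD, n = 5). Impact, whose product competes with GCN2 for its activator GCN1, rose by 0.56 (adjusted p = 0.00386). Gcn1l1, the gene of that activator, was among the lower genes and Ppp1r15b, the constitutive phosphatase subunit, among the higher. The heme kinase gene Eif2ak1 differed by 0.17 (adjusted p = 0.0751), and was called with limma-voom quality weights (0.17, adjusted p = 0.0389) and without JHU083 replicate 3 (0.19, adjusted p = 0.04). The double-stranded RNA kinase gene Eif2ak2 differed by -0.06 (adjusted p = 0.703).

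Among 10 bZIP partners and other stress transcription factors, 5 were higher (beside 18.4% of all loci) and 0 lower at this threshold, with a median log2 fold change of 0.26. Cebpa, a C/EBP factor of the myeloid lineage, rose by 1.05 on the log2 scale (edgeR adjusted p = 1.45e-06), with vehicle at 398 ± 17.2 CPM and JHU083 at 823 ± 85.7 CPM (SD, n = 5). Jdp2, a repressor that can bind with ATF and Jun proteins, rose by 0.63 (adjusted p = 4.73e-05). Atf3, an ATF4 target that also answers to many acute stimuli, rose by 0.61 (adjusted p = 0.00152). Nupr1 and Nfe2l2 were the other higher genes, at 0.50 and 0.33. Cebpb, another partner of ATF4, differed by -0.13 (adjusted p = 0.601) with a wide spread in both groups.

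Of 11 amino acid synthesis and one-carbon genes driven by ATF4 that were tested, 6 were lower (beside 18.3% of all loci), 1 was higher and 4 were not called, with a median of -0.71. Psat1, an enzyme of serine synthesis, fell by 1.15 on the log2 scale (edgeR adjusted p = 3.02e-06), with vehicle at 56.1 ± 4.87 CPM and JHU083 at 25.3 ± 3.08 CPM (SD, n = 5). Phgdh, the first enzyme of that pathway, fell by 1.11 (adjusted p = 0.000161). Mthfd1l, which makes formate in mitochondria, fell by 0.95 (adjusted p = 4.84e-06). Asns, the asparagine synthetase gene and a classical ATF4 target that uses glutamine, stood at 11.2 ± 0.964 and 13.5 ± 2.56 CPM (SD, n = 5), a difference of 0.27 (adjusted p = 0.134), and Asns was called higher without JHU083 replicate 1 (0.35, adjusted p = 0.0423). The 1 higher gene was Gpt2, an alanine aminotransferase, at 0.42 (adjusted p = 0.0121).

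Of 6 ATF4-linked amino acid transporters tested, 2 were lower and 0 higher, beside 18.3% lower and 18.4% higher among all loci, and the estimates were 3 positive and 3 negative. Slc1a5, a glutamine carrier, fell by 0.54 (edgeR adjusted p = 0.000747) and Slc7a1, a carrier of arginine and lysine, by 0.43 (adjusted p = 0.00772). Slc7a11, which exchanges cystine for glutamate, differed by 0.28 (adjusted p = 0.239), or by 0.15 to 0.41 with a sample left out (0.15 without JHU083 replicate 5). Its partner chain Slc3a2 differed by 0.17 (adjusted p = 0.0991), and was called without JHU083 replicate 2 (0.23, adjusted p = 0.0249). Slc7a5 was not analysed here. The cytosolic aminoacyl-tRNA synthetases, which load amino acids on tRNA and many of which ATF4 drives, had 13 lower (beside 18.3% of all loci) and 1 higher of 20, with a median of -0.29. Vars, for valine, fell by 1.05 (adjusted p = 7.04e-07), with vehicle at 183 ± 15.0 CPM and JHU083 at 88.7 ± 2.95 CPM (SD, n = 5). Nars, for asparagine, was the 1 higher gene, at 0.21 (adjusted p = 0.0197), a call lost with library-size scaling. Kars and Hars, for lysine and histidine, fell by 0.47 and 0.42 (adjusted p = 0.00044 and 0.00114).

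Other known ATF4 or CHOP targets were mixed, with 3 higher and 2 lower of 10 tested, beside 18.4% and 18.3% of all loci. Gdf15, a secreted stress hormone, rose by 1.53 on the log2 scale (edgeR adjusted p = 1.66e-05), with vehicle at 6.27 ± 1.46 CPM and JHU083 at 18.1 ± 3.25 CPM (SD, n = 5). Tnfrsf10b, a death receptor induced by CHOP, fell by 1.67 (adjusted p = 0.000136), with vehicle at 3.19 ± 0.616 CPM and JHU083 at 0.990 ± 0.243 CPM (SD, n = 5). On log2(FPKM + 1), which understates changes of low genes, Tnfrsf10b was at -0.60 and still called. Sqstm1, an autophagy receptor, rose by 0.37 (adjusted p = 0.00391). The other called genes were Herpud1 at 0.33 and Ero1l at -0.31, both tied to the endoplasmic reticulum.

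The branches next to the ATF4 branch were read from their own lists. Of 14 endoplasmic reticulum unfolded protein response genes, 7 were lower (beside 18.3% of all loci) and 2 higher, with a median of -0.24. Dnajb9, a chaperone gene driven by XBP1, rose by 0.85 (edgeR adjusted p = 0.000101), and Dnajc3 was the other higher gene at 0.25, while Creld2 and the disulfide isomerase gene Pdia6 fell by 0.55 and 0.53 (adjusted p = 0.00186 and 0.000362). Hspa5, the chaperone BiP, stood at 1389 ± 103 and 1439 ± 179 CPM (SD, n = 5), a difference of 0.05 (adjusted p = 0.714), which was -0.03 with library-size scaling and 0.00 to 0.11 with a sample left out. Of 9 mitochondrial chaperone and protease genes linked to ATF5, 4 were lower (beside 18.3% of all loci) and 0 higher. Trap1 fell by 0.48 (adjusted p = 0.000471) and Lonp1, a mitochondrial protease, by 0.30 (adjusted p = 0.00411), and Hspe1 was at -0.25. Hspd1, the mitochondrial chaperonin, fell by 0.36 (adjusted p = 0.0302). The Hspd1 call was lost in 5 of 10 fits that each left out a sample: without vehicle replicates 2, 3 and 4 and without JHU083 replicates 2 and 4. It was also lost on log2(FPKM + 0.1) (-0.38, limma adjusted p = 0.0642).

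Further restraints on mTORC1 and translation had 2 higher and 2 lower of 12 tested, a called share close to the 36.7% among all loci. Castor1, an arginine sensor listed as Gatsl3, fell by 0.73 (edgeR adjusted p = 0.00284), and Tsc1, a subunit of the complex through which REDD1 acts, rose by 0.48 (adjusted p = 0.00442). The Tsc1 call was lost on log2(FPKM + 0.1) and log2(FPKM + 1), at 0.33 and 0.26 (limma adjusted p = 0.0649 and 0.0664). The other higher value, 0.35, is that of a row shared by Eif4ebp3, a relative of Eif4ebp1, and Ankhd1, so it covers both. Sesn3, a relative of Sesn2, fell by 0.66 (adjusted p = 0.0241), and on log2(FPKM + 0.1) its difference was -0.07 (limma adjusted p = 0.907). The Sesn3 call was also lost without vehicle replicate 2, vehicle replicate 3 or JHU083 replicate 5, with adjusted p of 0.0638, 0.0576 and 0.0617.

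Genes that share other inputs with Ddit4 differed by list. Of 12 hypoxia targets, 6 were lower (beside 18.3% of all loci) and 1 higher, with a median of -0.34. The estimates of these hypoxia targets were 11 negative and 1 positive. Car9, an acid-regulating anhydrase, fell by 0.61 (edgeR adjusted p = 0.0109), Pdk1, a kinase that inhibits pyruvate dehydrogenase, fell by 0.52 (adjusted p = 0.00035), and the histone demethylase gene Kdm3a rose by 0.45 (adjusted p = 0.00878). The Kdm3a call was lost on log2(FPKM + 0.1) and log2(FPKM + 1), at 0.33 and 0.31 (limma adjusted p = 0.138 and 0.116). The 9 glucocorticoid targets were mixed, with 4 higher and 2 lower, beside 18.4% and 18.3% of all loci, and estimates 5 positive and 4 negative. Klf9, a transcription factor, rose by 1.53 (adjusted p = 0.000167) and Fkbp5, a co-chaperone of the receptor, by 1.11 (adjusted p = 3.46e-05), with Tsc22d3 at 0.99 and Dusp1 at 0.81. Mt2, a metallothionein gene, fell by 1.23 (adjusted p = 9.88e-06), and Mt1 was at -0.64.

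The lists that share inputs with Sesn2 and Ppp1r15a had more genes higher than lower. Of 10 p53 targets tested, 4 were higher (beside 18.4% of all loci) and 0 lower, with a median of 0.38, and 2 were called higher with library-size scaling. Trp53inp1 rose by 1.07 (edgeR adjusted p = 0.000232; 0.71 on log2(FPKM + 1), also called) and the cyclin gene Ccng1 by 0.50 (adjusted p = 0.000546), with Zmat3 at 0.45. Mdm2, the ligase of p53, rose by 0.45 (adjusted p = 0.0224), a call lost with library-size scaling (0.36, adjusted p = 0.0657) and in 5 of 10 fits without a sample. Those were the fits without vehicle replicates 1, 4 and 5 and without JHU083 replicates 4 and 5. Of 15 immediate early and dissociation genes, which also rise while tissue is taken apart, 7 were higher (beside 18.4% of all loci) and 2 lower. The lists share genes: Atf3 is also counted as higher among the bZIP partners and Dusp1 among the glucocorticoid targets. Ero1l is counted as lower among both the hypoxia targets and the ATF4 or CHOP targets. Dusp1, a phosphatase of MAP kinases, rose by 0.81 (adjusted p = 1.58e-05), with vehicle at 328 ± 19.5 CPM and JHU083 at 578 ± 77.1 CPM (SD, n = 5). Fosb rose by 0.63 (adjusted p = 0.000467), and the heat shock co-chaperone gene Dnajb1 fell by 0.64 (adjusted p = 0.000131), with Ier3 the other lower gene at -0.27. The part of tissue handling in the Ppp1r15a, Atf3 and Ddit3 values was not tested.

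**Figure D4:**
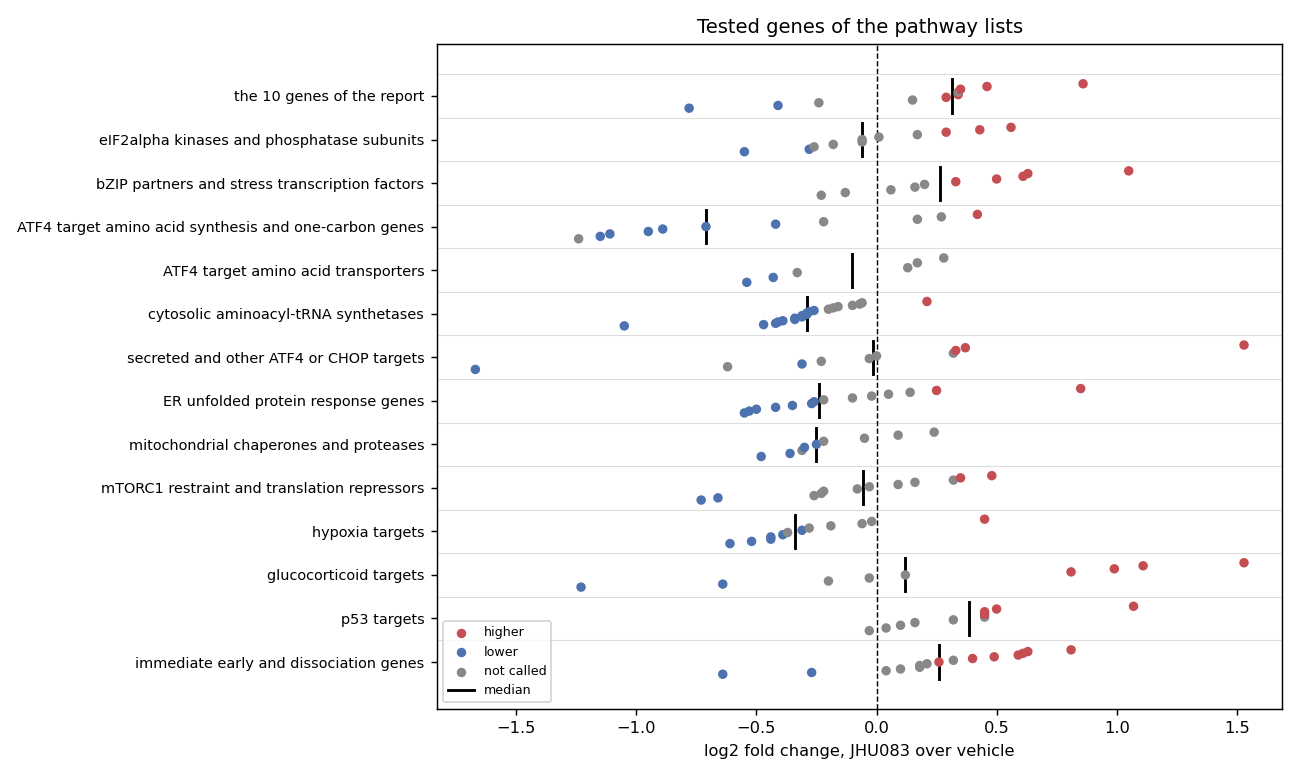
Log2 fold change of JHU083 over vehicle (horizontal axis) for every tested gene of the 10-gene set and of the 13 pathway lists, coloured by call, with a black line at each list's median. The amino acid synthesis list has its median at -0.71 and the synthetases at -0.29, to the left of the 10 genes at 0.32.

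Markers of other cell types moved with the treatment beside these results, although the sort kept only cells with CD45, CD11b and F4/80. The counts stand beside 18.3% lower and 18.4% higher among all loci. All 10 tumour epithelial markers were tested and all 10 were lower, with a summed level of 311 to 685 CPM in vehicle and 107 to 226 CPM in JHU083. Of 7 fibroblast markers 5 were lower (Col1a1, Col1a2, Col3a1, Pdgfra and Pdgfrb), and their summed level ran from 103 to 226 CPM in vehicle and from 25.9 to 115 CPM in JHU083. Of 5 endothelial markers 3 were tested and 1, Pecam1, was lower, with a summed level of 122 to 209.6 CPM against 34.0 to 82.7 CPM. Most of that sum was Pecam1 itself (111 to 194 CPM in vehicle and 22.6 to 71.3 CPM in JHU083), while Cdh5 and Kdr differed by -0.49 and -0.15 and were not called (adjusted p = 0.176 and 0.362). Neutrophil markers summed to 92.5 to 103 CPM in vehicle and 94.4 to 146 CPM in JHU083, with S100a8 and S100a9 lower and Csf3r higher of 5 tested. Eosinophil, dendritic cell, T and NK cell and B cell markers had 1 higher gene each (Siglecf, Cd209a, Cd4 and Cd79b) and 0 lower, and summed to at most 56.5 CPM in any sample. In the same order, 3 of 5, 5 of 6, 3 of 8 and 1 of 4 of these markers were tested. Cd4 made up most of the T and NK cell sum in JHU083, at 25.6 to 40.7 CPM. Cd3e, Cd3d and Cd3g were too low to be tested, and Klrb1c was at -0.38 and not called (edgeR adjusted p = 0.0563). No marker of the 9 lists was at 0 in every library. Cd8a and Ly6g, genes of antigens that the sort excluded, reached at most 0.459 and 0.174 CPM. Other genes of their lists stood higher, with Csf3r at up to 99.8 CPM. The part of tumour or fibroblast RNA in the lower Ddit4 and Eif4ebp1 values and in the lower lists was not tested.

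The comparison was repeated within the 5 libraries listed at 0 at Rn18s-rs5 and Gm42418, where 8.79% of loci were called, and within the other 5, where 21.8% were. Each fit rests on 3 against 2 samples. Cebpg was called in both, at 0.74 and 0.92, and so was Ddit4, at -1.07 and -0.58. Atf4 was 0.32 and 0.30, Ddit3 0.45 and 0.25 and Ppp1r15a 0.29 and 0.42, none of them called in either. Atf5 was 0.37, not called, and 0.53, called, and Eif4ebp1 was -0.36, not called, and -0.45, called. Of the called list genes followed through the alternatives, Impact, Eif2ak3, Atf3, Slc1a5, Slc7a1, Kars, Hars, Tnfrsf10b, Creld2, Pdia6, Trap1, Hspd1, Lonp1, Castor1, Sesn3, Tsc1, Car9, Kdm3a, Trp53inp1 and Mdm2 were not called within the libraries listed at 0. There Creld2 was -0.36, Car9 -0.29 and Kdm3a 0.26 (adjusted p = 0.134, 0.478 and 0.355), and Klf9 was still called, at 0.84 (adjusted p = 0.0439). The others kept their direction at smaller or similar size: Slc1a5 was -0.54, Slc7a1 -0.44, Sesn3 -0.65, Tnfrsf10b -1.54, Castor1 -0.63 and Trp53inp1 0.84. Impact was 0.39, Eif2ak3 0.34, Atf3 0.43, Kars -0.35, Hars -0.32, Pdia6 -0.42, Trap1 -0.41, Hspd1 -0.25, Lonp1 -0.23, Tsc1 0.36 and Mdm2 0.32. Eif2ak4, Sqstm1, Hspd1 and Mdm2 were not called within the other 5. All 7 genes called over the 10 libraries kept their direction in both.

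Cebpg, with the largest change of the 10 genes, was compared with 10125 other loci of average log2 CPM of at least 2 by the mean absolute difference between log2 CPM profiles over the 10 samples, each centred on its own mean. The nearest were Slc17a5, a lysosomal carrier of sialic acid, at 0.063, Mertk, a receptor for dying cells that is also on the macrophage marker list, at 0.071, and Pcyt1a, an enzyme of phosphatidylcholine synthesis, at 0.077. Mertk rose from 81.0 ± 6.08 to 159 ± 17.9 CPM (SD, n = 5). The treatment difference stays in profiles centred this way, so loci with a log2 fold change like that of Cebpg come out near. Slc17a5, Mertk and Pcyt1a had 0.84, 0.97 and 0.71, beside 0.86 for Cebpg. How the distances were spread over all loci was not examined.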

How the data were processed

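Polyadenylated RNA of 5 vehicle and 5 JHU083 samples was sequenced. TopHat2 2.1.1 and the build GRCm38 are named in the submitters' processing notes; the counting program is not given in the sources used here. The authors deposited a raw count column, per the file headers. The deposited values are here called expected counts, since they were whole fragments multiplied by a step per sample (0.8880 to 1.170). Division by the step gave whole numbers (within 0.1) for 99.9% to 100.0% of positive values, which were rounded and used as fragments. The other deposited column, headed only as normalized, was taken as FPKM from its values: its ratio to the count column varied by a median of 3.15% between samples over 8186 loci. A row without a symbol (at most 0.0021% of fragments) was left out.

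Loci were filtered with filterByExpr, scaled with TMM and tested with edgeR 4.0.16 (R 4.3.3), with no covariate. CPM values use TMM-scaled library sizes. The standard error is the absolute log2 fold change over the square root of F. Alternatives were DESeq2 1.42.0, limma-voom and limma on log2(FPKM + 0.1) and log2(FPKM + 1) (limma 3.58.1), other scalings and filters, a replicate block, leaving out samples and the values at Rn18s-rs5 and Gm42418. The edgeR code was tested on simulated data. Positions are those of GENCODE M21. Pathway genes without a row under their symbol were matched by RefSeq synonyms (Dele1, Castor1 and Castor2).

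The 10 genes, the 13 pathway lists, the 9 marker lists and the tests were chosen with earlier results of these data known. Named are the 10 genes, the 3 called genes with the largest change in each list, and the eIF2alpha kinases, Asns, Psat1, Atf3, Cebpb, Slc7a11, Slc3a2 and Hspa5; other called genes and markers, named where a count was small, were picked after their values were seen. The number of macrophage markers called is not reported here.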

Additional observations from a re-analysis of the deposited data

How the results depend on the processing

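Over 24 alternatives, 225 of 240 values of the 10 genes kept direction and call, 14 lost the call and 1 changed sign (Chac1, 0.06 without vehicle replicate 2, with a range of -0.64 to 0.06 over the samples left out). Of 1080 values of 45 genes from the lists (those the naming rule gives), 1024 kept both, 47 lost the call, 4 gained it (Eif2ak1 in 2 fits, Asns and Slc3a2) and 5 changed sign, all in genes that were not called: Eif2ak2 (0.03 without JHU083 replicate 3, range -0.11 to 0.03; 0.09 within the libraries not listed at 0), Cebpb (0.06 without vehicle replicate 1, range -0.21 to 0.06) and Hspa5 (-0.03 with library-size scaling, -0.01 within the libraries not listed at 0). Of the 10 genes, the count called higher was 1 within the libraries listed at 0, 2 within the others and 3 on log2(FPKM + 0.1), and 4 to 5 with a sample left out; the count called lower was 1 within the libraries listed at 0 and 2 with any sample left out. Each of the fits within libraries has fewer samples, and there 532 loci were higher and 586 lower in the libraries listed at 0, and 1276 higher and 1542 lower in the others. With a sample left out, 1821 to 2899 loci were higher and 1900 to 2930 lower, both highest without JHU083 replicate 3. Library-size scaling lowered all log2 fold changes by a median of 0.08 (-0.08), and gave 0 synthetase, 1 unfolded protein response, 1 mTORC1 restraint and 2 p53 genes called higher, with 4 kinase-list and 4 mTORC1 restraint genes called lower; RLE size factors also gave 1 mTORC1 restraint gene higher. The labels number samples 1 to 5 in both groups. Same-numbered samples correlated at -0.569 to 0.091 in their deviations from the group means, and none correlated best with its own number, so the numbers gave no pairing. With the replicate block, 1612 loci were higher and 1757 lower, Cebpg was 0.86, Ddit4 -0.78, and 5 of the 10 genes were higher and 2 lower; Hspd1 (-0.38, adjusted p = 0.057) and Mdm2 (0.45, adjusted p = 0.0637) were not called. At these depths Chac1, with 10 to 59 fragments, and Trib3, with 43 to 84, had the fewest fragments of the 10.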
